A study of Mus musculus with 3 samples.

Results

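The muscle cells of the mouse embryonic tail were taken as the cells that carry the authors' cluster code 5 in the deposited single-cell counts of the E14.5 tail. The code held 121 of the 2052 tail cells (5.90%, 95% interval 4.92 to 7.005), of 15827 cells in the 3 libraries of the series. The label was checked against the markers given for it, *Myog*, *Ttn* and *Myod1*, with *Myf5*, *Pax7*, *Chrna1* and *Actc1* added, and against 6 neural markers, among them *Rtn1*, *Stmn2*, *Tubb3*, *Elavl3* and *Sox10*. It held for only some of the cells. By its number of cells, this code corresponds to a cluster that the study names skin, not muscle. The cluster that the study names muscle corresponds by number to code 9, where none of 157 cells had 3 or more of the muscle markers. The names were not matched further. Code 5 is described here because the muscle markers were highest in it. In 69 of the 121 cells (57.0%, 47.7 to 66.0) more muscle than neural markers had a UMI (unique molecular identifier, the tag that marks 1 captured transcript), in 47 cells more neural than muscle markers had one, and in 5 cells the counts were equal. Below, the 69 are called the muscle-marker cells and the remaining 52 the other cells of code 5. This split was made after the values had been seen.

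The study compared a culture of mouse embryonic stem cells differentiated toward tendon with tail cells of the embryo, and the tail served as its in vivo reference. The tail library came from E14.5 embryos of ScxGFP mice, in which a tendon gene's regulatory sequence drives a green fluorescent protein, on a C57BL6 background, with embryos of both sexes. Tails were cut off with a scalpel, dissociated with trypsin and collagenase, depleted of dead cells and not sorted for any cell type, and no treatment was given. There was 1 tail library, and the number of embryos behind it is not given in the sources used here, so that no test between groups was possible and no p-value is given.

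Skeletal muscle of the trunk and tail arises from the somites. Progenitors that carry the transcription factor PAX7 divide and persist, those that switch on the myogenic factors MYF5 and MYOD become myoblasts, and those that switch on myogenin leave the cell cycle, fuse into multinucleated fibers and assemble the contractile sarcomere. Fusion needs the membrane proteins myomaker and myomixer, encoded by *Mymk* and *Mymx*.

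The sequences below carry the regulatory letters usually looked for at muscle genes. They are shown for a myogenic factor, an acetylcholine receptor subunit and 2 sarcomere genes that were among the genes highest in code 5 relative to the rest of the tail. Each is the RefSeq sequence (GRCm38.p6) of the 250 bases before the annotated start, read 5′ to 3′ on the gene's strand. Capitals mark matches to CANNTG, the E-box core that MYOD and myogenin bind, and to a strict form of the MEF2 motif (CTA and TAG with 4 bases between them, each A or T), both searched on both strands.

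Myog, chr1:134289754-134290003, plus strand: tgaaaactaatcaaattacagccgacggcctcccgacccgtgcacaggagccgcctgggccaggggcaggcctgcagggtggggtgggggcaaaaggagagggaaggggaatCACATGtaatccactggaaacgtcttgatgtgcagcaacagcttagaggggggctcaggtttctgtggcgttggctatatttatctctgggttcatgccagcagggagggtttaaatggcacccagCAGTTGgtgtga

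Chrna1, chr2:73580339-73580588, minus strand: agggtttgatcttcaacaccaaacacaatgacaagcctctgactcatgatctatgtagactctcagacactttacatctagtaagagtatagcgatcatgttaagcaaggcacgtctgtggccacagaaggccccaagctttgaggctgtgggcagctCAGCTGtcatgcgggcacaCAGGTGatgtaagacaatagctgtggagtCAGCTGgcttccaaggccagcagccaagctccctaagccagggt

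Klhl41, chr2:69669870-69670119, plus strand: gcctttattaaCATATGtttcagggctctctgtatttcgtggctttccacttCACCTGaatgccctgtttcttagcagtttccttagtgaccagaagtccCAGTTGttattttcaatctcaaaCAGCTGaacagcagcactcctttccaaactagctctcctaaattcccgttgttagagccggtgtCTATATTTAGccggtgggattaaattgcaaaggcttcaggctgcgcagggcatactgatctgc

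Ttn, chr2:76982548-76982797, minus strand: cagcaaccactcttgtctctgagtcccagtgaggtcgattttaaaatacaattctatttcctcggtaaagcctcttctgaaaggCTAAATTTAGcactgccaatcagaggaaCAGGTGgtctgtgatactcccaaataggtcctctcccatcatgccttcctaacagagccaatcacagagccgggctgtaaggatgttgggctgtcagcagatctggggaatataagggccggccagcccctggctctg

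Of the 20 genes with the largest ratio in code 5, the table of promoters held 15 windows, 2 of which were overlapping windows of *Tnni1*. CANNTG lay in 12 of the 15 (80.0%, 51.9 to 95.7), and it lay in 66.2% of all 32851 windows. The strict form of the MEF2 motif lay in 2 of the 15 (13.3%, 1.66 to 40.5), those of *Klhl41* and *Ttn*, and in 0.508% of all windows. MEF2 also binds sites with other letters at the ends, and these were not counted or capitalised. The CArG box, the motif of serum response factor (CC and GG with 6 bases between them, each A or T), lay in 2 of the 15, those of *Actc1* and *Acta1*, and in 1.47% of all windows. With any base allowed in those places, which no longer requires these motifs, the patterns lay in 3 and 12 of the 15 and in 3.20% and 67.1% of all windows. These matches describe letters in the windows and were not read as binding sites.

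The gene with the third largest ratio, *Gm28653*, is annotated as a long non-coding RNA (GENCODE M21, chr1:20669882-20684298, plus strand). Its span holds 2 microRNAs that are known from skeletal muscle, miR-206 and miR-133b. Their mature sequences from RefSeq are shown with the seed (bases 2 to 8) in capitals, because the transcript around them had 218 UMIs in 37 of the 69 muscle-marker cells and 3 UMIs in the 1931 cells outside code 5. The microRNAs themselves were not measured.

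mmu-miR-206-3p, chr1:20679055-20679076: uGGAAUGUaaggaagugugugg

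mmu-miR-133b-3p, chr1:20682834-20682855: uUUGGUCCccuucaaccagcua

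The depth behind the values was as follows. The 121 cells of code 5 carried 2166309 UMIs, with a median of 17396 UMIs per cell (range 1414 to 45116), and the other 1931 tail cells carried 29177432, with a median of 13424. The muscle-marker cells were the deeper, with a median of 22969 UMIs and 5451 genes per cell, against 9018.5 UMIs and 3612.5 genes in the other 52 cells of code 5. No barcode of code 5 was shared with another library. Levels are given as CPM, for which a gene's UMIs were summed over a group's cells and scaled to a common library total. The intervals given with levels, ratios and shares are exact, at 95%, and cover counting error only.

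The split within code 5 left few cells in between. The muscle-marker cells had UMIs of 2 to 7 of the 7 muscle markers, with a median of 5. Of these 69 cells, 50 had no neural marker, 17 had 1 and 2 had more. The 52 other cells had a median of 3 of the 6 neural markers, while 41 of them had no muscle marker, 10 had 1 and 1 had 2. In the muscle-marker cells the smallest lead of muscle over neural markers was 2, and 14 cells of code 5, all among the other 52, had a difference of 1 or less. After thinning of each cell to 3000 UMIs the split again gave 69 muscle-marker cells. Without thinning, 66 cells of the code had at least 3 of the 7 muscle markers.

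**Figure D1:**
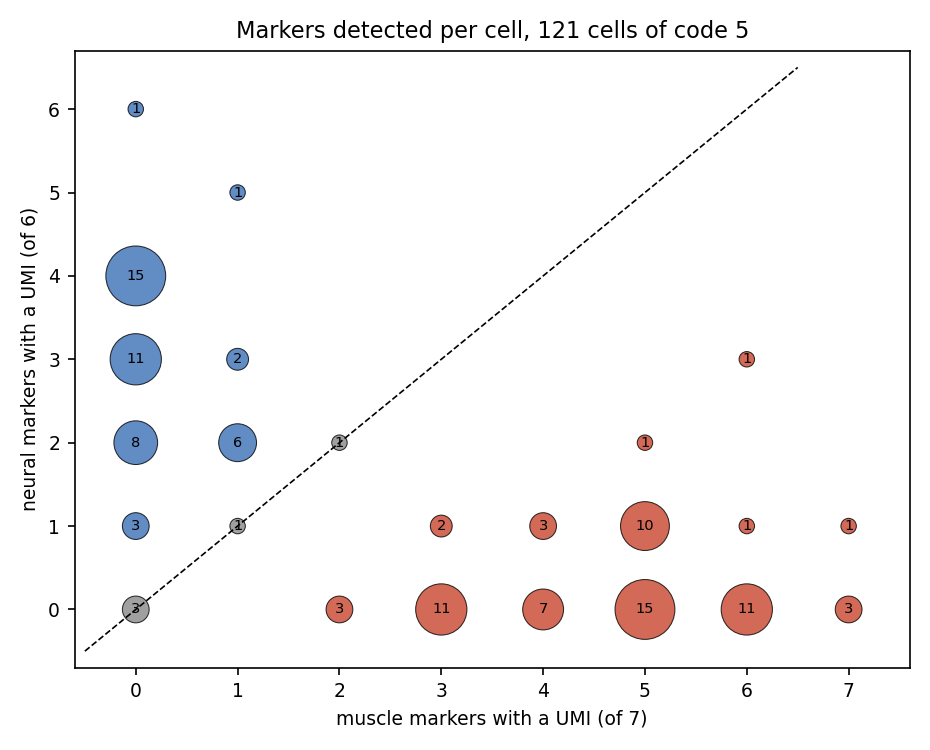
Number of muscle markers (x axis, of 7) and of neural markers (y axis, of 6) with a UMI in each of the 121 cells of code 5. The area of a circle and the number in it give the cells at that position, and red, blue and gray mark cells with more muscle markers, more neural markers or equal numbers. The 69 muscle-marker cells lie at 2 or more muscle markers below the dashed line of equality.

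All 5 doublets that Scrublet called in code 5 were among the other 52 cells. They had 17598 to 41218 UMIs. In 4 of them 146 to 441 UMIs came from 15 tendon markers, and in the fifth 167 came from epidermis markers, against at most 83 and 3 in the remaining 47 cells. None of the 69 muscle-marker cells was called.

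The myogenic factors lay mostly in the 69 cells. *Myog*, the gene of myogenin, had 2884 UMIs in 42 of the 69 muscle-marker cells and no UMI in the other 52 cells of code 5. In the 1931 other tail cells it had 25 UMIs. Its level was 1800.1 CPM (1735 to 1867) against 0.857 CPM, a 2101-fold difference (1420 to 3252). These and the following markers were used to split the code or lay in the counts that the authors clustered, so that the ratios describe the cells and are no test.

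*Myod1*, the myoblast determination factor, was at 847 CPM in the muscle-marker cells and 0.788 CPM in the other tail cells, 1074-fold (713 to 1701). *Ttn*, the gene of the giant spring protein titin, was at 2545 against 5.004 CPM, 509-fold (431 to 604), with UMIs in 53 of the 69 cells. *Myf5*, the earliest of the myogenic factors in the trunk, was at 155 against 0.514 CPM, 302-fold (180 to 548), and *Pax7* at 143 against 0.857 CPM, 167-fold (110 to 263). *Myf6*, the remaining member of the family, had only 4 UMIs, each in a different cell, and all 4 cells had *Pax7* and no *Myog*. The size of these ratios depended on how cells were weighted, which the intervals do not cover. Over all of code 5 the ratio of *Ttn* was 376 from summed UMIs, 134 as a mean of per-cell CPM and 248 with the other codes weighted equally. That of *Myod1* was 795, 406 and 297, and that of *Myog* 1554, 778 and 1060.2.

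At 3000 UMIs per cell, *Myog* had a UMI in 53.6% of the muscle-marker cells (41.2 to 65.7), *Ttn* in 71.0% (58.8 to 81.3), *Myod1* in 65.2% (52.8 to 76.3) and *Pax7* in 31.9% (21.2 to 44.2). Without thinning the shares were 60.9%, 76.8%, 85.5% and 62.3%. In the red blood cells of code 12, which should lack these transcripts and so measure free RNA, 1 of 125 thinned cells had *Myog* (0.800%, 0.0203 to 4.38), 2 had *Myod1* (1.60%), and none had *Ttn* or *Pax7* (0 of 125, which at 3 counts allows a share of up to 2.40%). The median depth before thinning was 22969 UMIs in the muscle-marker cells and 8391.5 in code 12.

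Outside code 5, the muscle markers were rare. At least 3 of the 7 had a UMI in 5 of the 1931 other cells. Of these, 2 were in code 7, whose median depth was 1881 UMIs, and 3 in code 2, with 34257 to 43546 UMIs and 53 to 162 UMIs of *Col1a1*, the main collagen of connective tissue. None of the 5 was called a doublet, but few cells of the library were called at all. Code 7 was the next highest code for *Ttn* (62.8 CPM), *Actc1* (112 CPM), *Tnnt1* (206 CPM) and *Myog* (4.49 CPM, from 1 UMI).

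**Figure D2:**
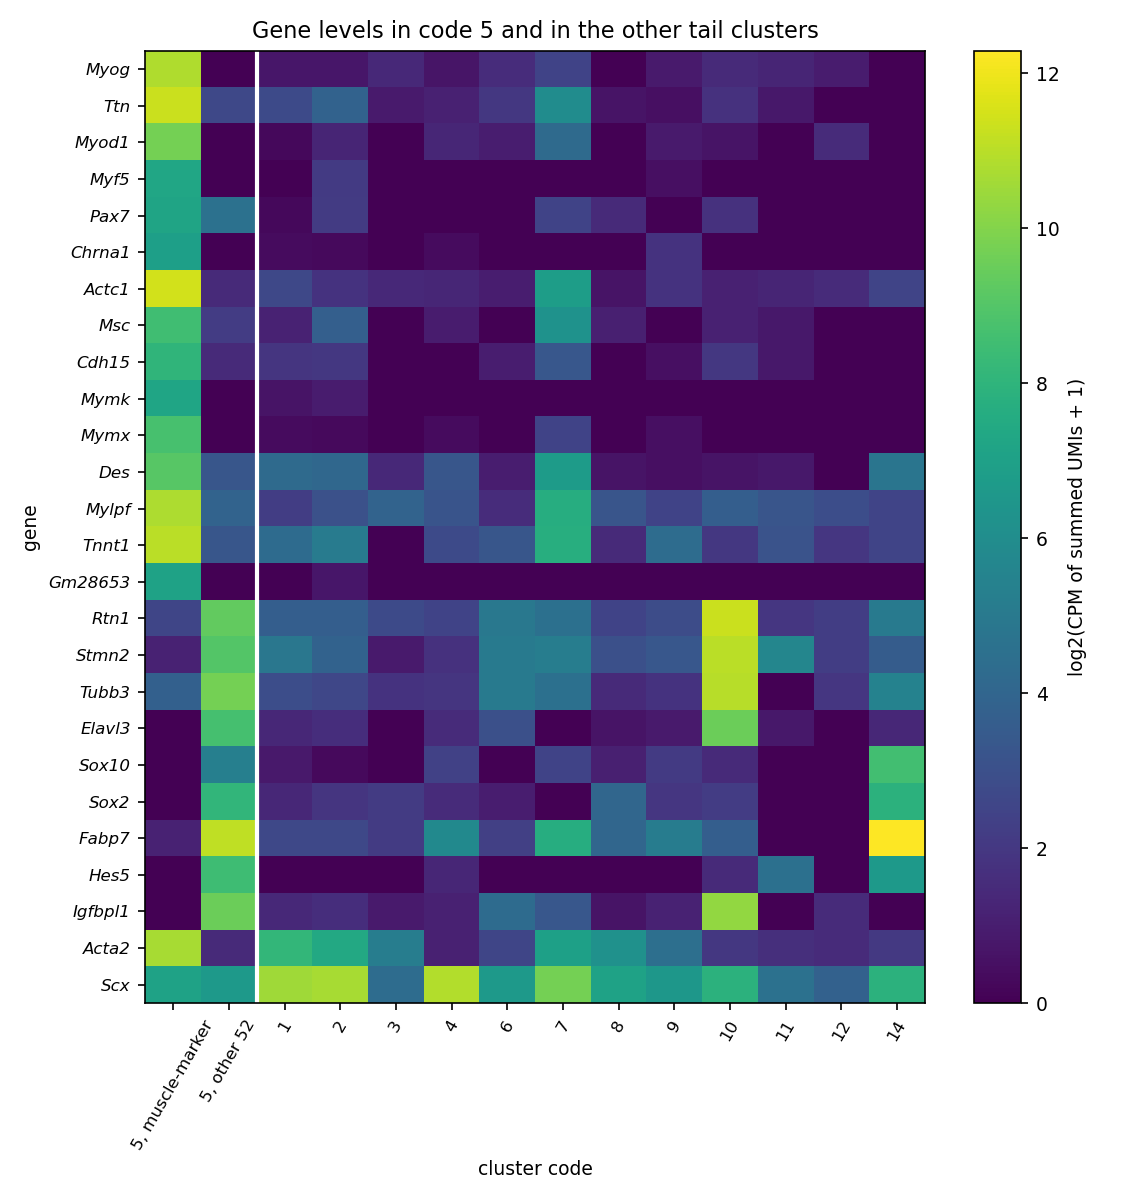
Level of 26 genes (rows) in the 2 parts of code 5, left of the white line, and in the 12 other cluster codes of the tail (columns), as log2 of summed-UMI CPM plus 1 (color). Myogenic and sarcomere genes are bright in the muscle-marker column, while the other 52 cells share Rtn1, Stmn2, Tubb3, Elavl3 and Igfbpl1 with code 10 and Sox2, Fabp7 and Hes5 with code 14.

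Over all 121 cells of code 5, the 20 genes with the largest ratio to the other tail cells were muscle genes. This counts *Gm28653*, the non-coding transcript around microRNAs known from skeletal muscle. The 20 were, from *Myog* at 1554-fold down to *Mylpf* at 165-fold, *Myog*, *Mymx*, *Gm28653*, *Myod1*, *Actc1*, *Klhl41*, *Neb*, *Atp2a1*, *Ttn*, *Myl1*, *Mymk*, *Lmod3*, *Chrna1*, *Fitm1*, *Myf5*, *Tnni1*, *Acta1*, *Myh3*, *Klhl31* and *Mylpf*. By size alone, 637 of 11049 genes (5.77%) were at least 2-fold higher in code 5 and 1264 (11.4%) at least 2-fold lower, where only genes found in 10% or more of the cells in one of the groups were considered. In the 69 muscle-marker cells alone, 857 of 11415 genes (7.51%) were at least 2-fold higher and 2010 (17.6%) at least 2-fold lower. The lists that follow are read against these shares of all genes, in the muscle-marker cells. A gene could pass the detection filter through the group in which it was high, so that the counts are descriptions.

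Of 30 myogenic regulators, 28 passed the filter, 21 were at least 2-fold higher and 1 was lower. Beyond the factors above, *Msc*, the repressor musculin, was at 371 CPM (119-fold), *Vgll2*, a muscle cofactor of TEAD proteins, at 343 CPM (106-fold), and the homeobox gene *Pitx3* at 68.7 CPM (223-fold). The single lower gene was *Meox2*, a homeobox gene of somites and limb muscle precursors, at 4.99 against 78.9 CPM. *Pax3*, the progenitor factor that precedes *Pax7*, was at 15.6 against 5.52 CPM, and *Lbx1*, which marks precursors that migrate into limbs, at 12.5 against 12.8 CPM.

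Of 24 progenitor genes, 21 passed the filter, with 10 higher and 5 lower. *Fgfr4*, a receptor of fibroblast growth factors kept by myoblasts, was at 85.5 CPM (80.5-fold, 54.2 to 123), *Mstn*, the growth inhibitor myostatin, at 36.8 CPM (269-fold, 99.5 to 1018), and *Met*, the receptor of hepatocyte growth factor, at 35.0 CPM (4.97-fold). The Notch ligand *Dll1* was 12.6-fold higher (9.14 to 17.2) and the Notch target *Heyl* 3.76-fold higher (2.73 to 5.08), while the receptor *Notch1* was at 33.7 against 53.4 CPM. The adhesion gene *Vcam1* was at 21.8 against 174 CPM. The cadherin *Cdh15*, known as M-cadherin, was at 264 CPM and had UMIs in 64 of 69 cells.

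Of 18 fusion genes measured, 14 passed the filter, 7 were higher and 5 lower. *Mymx* was at 416 CPM in the muscle-marker cells, 1735-fold above the other tail cells (838 to 4333), and *Mymk* at 147 CPM, 430-fold (230 to 908), with UMIs in 31 and 27 of the 69 cells. *Jam3*, an adhesion molecule that many tissues use, was 4.62-fold higher (4.20 to 5.09). *Cdh2*, the gene of N-cadherin, was at 32.5 against 98.2 CPM and the engulfment gene *Dock1* at 59.9 against 92.4 CPM.

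Sarcomere genes were higher together. Of 56 measured, 41 passed the filter, 39 were at least 2-fold higher and none was lower, with a median log2 ratio of 6.98 against -0.08 over all genes that passed. Summed, the 56 genes took 20167 CPM in the muscle-marker cells and 1288 CPM in the other tail cells, a 15.7-fold difference (15.4 to 15.9). The cardiac actin gene *Actc1*, which embryonic skeletal muscle uses before the adult one, was at 2834 CPM (725-fold, 602 to 881) and *Acta1*, the adult skeletal actin gene, at 318 CPM (258-fold, 184 to 373). *Tnnt1*, slow skeletal troponin T, had UMIs in all 69 cells, at 2074 CPM (126-fold, 114 to 139). Multi-mapping reads had been left out by the authors, so that levels of near-identical actin and myosin genes are uncertain.

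*Myh3*, embryonic myosin heavy chain, was at 667 CPM in 19 cells, *Myh8*, the perinatal form, at 37.4 CPM in 25 cells and *Myh7*, the slow form, at 41.8 CPM in 4 cells. The adult fast form *Myh1* had 19 UMIs in 13 cells, and another, *Myh4*, and the slow or cardiac light chains *Myl2* and *Myl3* had no UMI in the 69 cells, where 3 counts would be 1.87 CPM. *Chrng*, the fetal subunit, was at 33.7 CPM (140-fold, 63.7 to 366), and *Chrne*, its adult replacement, had no UMI. The adult fiber genes *Ckm*, muscle creatine kinase, and *Mb*, myoglobin, had 7 and 14 UMIs.

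Genes of excitation-contraction coupling and of the neuromuscular junction were mostly higher as well. Of 26 coupling genes 19 passed the filter, 16 were higher and none lower. *Atp2a1*, the calcium pump of the fast fiber reticulum, was at 159.8 CPM (518-fold, 269 to 1146), *Ryr1*, the calcium release channel, at 71.8 CPM (44.6-fold, 31.5 to 64.0), and *Stac3*, which couples the voltage sensor to it, at 89.3 CPM (65.1-fold, 45.6 to 94.9). The voltage sensor *Cacna1s* itself had 5 UMIs in 2 cells.

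Of 20 junction genes, 16 passed, with 9 higher and 2 lower. *Chrna1*, the alpha subunit of the receptor, was at 123 CPM (326-fold, 178 to 664), and its clustering protein *Rapsn* at 110 CPM in 60 of 69 cells (57.6-fold, 42.4 to 79.2). The kinase *Musk* was at 24.3 CPM (355-fold, 91.9 to 3036). *Lrp4* and *Agrn*, the receptor and the signal that act through it, were at 9.99 and 24.3 CPM, against 18.3 and 72.9 CPM in the other tail cells. Of 21 muscle energy genes measured, 12 passed, with 6 higher and 1 lower.

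**Figure D3:**
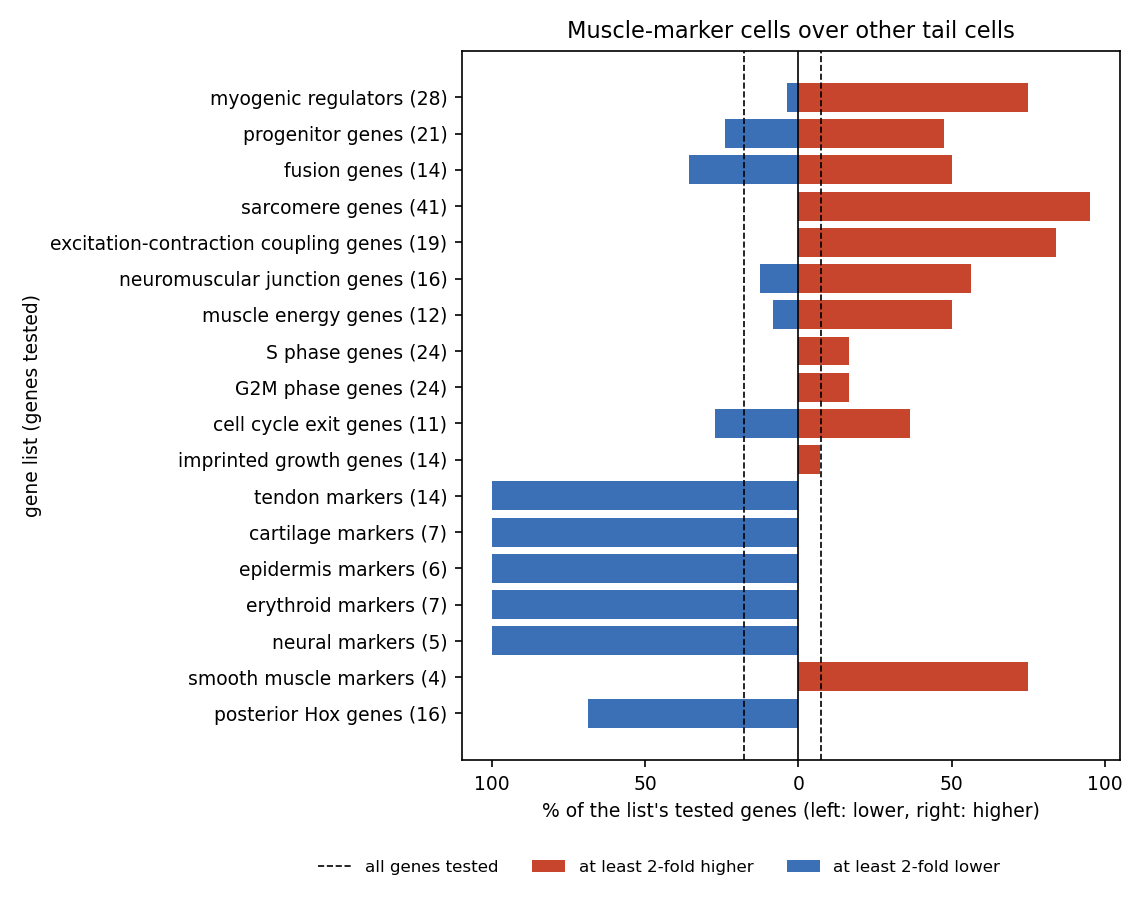
Share of the genes of each list that were at least 2-fold higher (red, right) or lower (blue, left) in the 69 muscle-marker cells than in the other tail cells, as a percent of the genes that passed the detection filter (number in parentheses, lists with at least 4, young neuron genes left out). Dashed lines mark the shares over all genes, 7.51% higher and 17.6% lower. Sarcomere and coupling genes and smooth muscle markers lie to the right, and tendon, cartilage, epidermis, erythroid and neural markers to the left.

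*Acta2*, the smooth muscle actin gene that immature skeletal muscle also uses, was at 1665 CPM in the muscle-marker cells and 130 CPM in the other tail cells, 12.8-fold (12.2 to 13.4), with UMIs in 64 of 69 cells. The next highest code, code 1, was at 277 CPM. *Myh11* and *Cnn1*, which define differentiated smooth muscle, had no UMI in the 69 cells. The 3 of 4 smooth muscle markers that were higher included *Acta2* and *Des*, the intermediate filament gene of all muscle, at 549 CPM (48.7-fold). Cardiac markers summed to 6.24 CPM.

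Markers of the other tissues of the tail were low. All 14 tendon markers that passed the filter were lower, and their sum was 1170 CPM against 8834 CPM (0.132-fold), with *Tnmd* at 0. Codes 3, 8, 10, 11 and 12 had tendon marker sums of 114 to 1128 CPM, and the remaining codes 1220 to 15063 CPM. *Scx*, the tendon transcription factor, was at 135 against 1020 CPM (0.133-fold, 0.116 to 0.152), and the ScxGFP transgene had 8 UMIs in 7 of the 69 cells, at 4.99 against 31.9 CPM. All 7 cartilage, 6 epidermis, 7 red blood cell and 5 neural markers that passed were lower as well. Sums were 164 against 1980 CPM for cartilage, 23.1 against 1081 for epidermis, 202 against 60140 for red blood cells and 40.6 against 710 for neural markers. Immune markers had no UMI and endothelial markers summed to 16.9 CPM.

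Among the 10 genes lowest in all of code 5, from a ratio of 0.00177 for *Hba-x* to 0.0254 for *Pax1*, were *Hba-x*, *Hba-a1*, *Hbb-bt*, *Hbb-y*, *Alas2*, *Hbb-bs*, *Hba-a2*, *Cpa3* and *Pax1*. Most serve red blood cells, whose transcripts fill part of the reference. *Cpa3* is a mast cell protease and *Pax1* a factor of the sclerotome, the part of the somite that forms the axial skeleton. *Hba-a1* and *Hba-a2* are near-identical, and their split is uncertain.

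Posterior *Hox* genes, which mark position along the body, were lower in the muscle-marker cells. Of 16 genes of groups 9 to 13, all passed the filter, 11 were at least 2-fold lower and none was higher. The sum was 380 against 889 CPM, 0.427-fold (0.394 to 0.463). Sums in codes 1, 2, 4 and 9 were 866 to 1044 CPM and in codes 10 and 14 2466 and 654 CPM, while codes 3, 6, 7, 8, 11 and 12 lay between 8.47 and 422 CPM. *Hoxc13* was at 105 against 143 CPM and *Hoxc9* at 36.8 against 35.8 CPM, while *Hoxa10* was at 41.2 against 175 CPM and *Hoxb9* at 7.49 against 61.2 CPM. In all 121 cells of code 5 only 4 of the 16 were at least 2-fold lower, and the other 52 cells carried 1602 CPM.

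The muscle-marker cells were then divided by *Pax7* and *Myog*, the progenitor and the differentiation factor. A UMI of *Pax7* only was found in 26 cells, of both in 17, of *Myog* only in 25 and of neither in 1. In the whole code the numbers were 35, 17, 25 and 44, and the 9 further *Pax7* cells all also had *Pax3* and lay outside the muscle-marker cells. The classes had similar depth, with medians of 24509.5, 24488 and 22665 UMIs. *Pax7* counts were low, with at most 14 UMIs in a cell, and a cell without a UMI may still have held the transcript. After thinning to 3000 UMIs, 22 cells of the code had *Pax7* only, 3 both and 34 *Myog* only. *Pax7* and *Myog* chose the classes. *Myod1*, *Myf5*, *Ttn*, *Actc1* and *Chrna1* had helped to choose the 69 cells, but not the class of a cell. A cell with *Pax7*, no *Myog* and a neural marker needed a further muscle marker to be among the 69. The detection of *Myf5* in *Pax7* only cells is therefore partly fixed by that choice.

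Between the classes, 1552 of 11562 genes (13.4%) were at least 2-fold higher in *Myog* only than in *Pax7* only cells and 2878 (24.9%) at least 2-fold lower, within the muscle-marker cells. Over all of code 5 they were 1438 of 11400 (12.6%) and 2864 (25.1%). In the latter, *Fabp7*, *Fez1*, *Chst2*, *Hes5* and *Pax3* were among the 10 genes highest in *Pax7* only cells, and the first of these had at most 1 UMI in any muscle-marker cell. The comparison is therefore described within the muscle-marker cells.

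*Myf5* went with *Pax7*. It had UMIs in all 26 *Pax7* only cells, with 122 to 762 CPM per cell and a median of 345, in 14 of 17 cells with both and in 6 of 25 *Myog* only cells, where the highest cell had 55.6 CPM. Summed levels were 342, 85.7 and 10.5 CPM, 32.4-fold higher in *Pax7* only than in *Myog* only cells (14.6 to 89.4).

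*Msc* followed the same order at 777, 231 and 36.9 CPM (21.0-fold, 13.6 to 34.3), again with UMIs in all 26 *Pax7* only cells. *Gas6*, a ligand of TAM receptors, was at 134, 42.8 and 0 CPM, at least 25.4-fold higher in *Pax7* only cells. The Notch target *Hey1* was at 44.6, 30.9 and 0 CPM. *Chodl*, the gene of chondrolectin, was at 79.3, 16.7 and 0 CPM, at least 15.0-fold higher.

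The other genes with the largest ratios toward *Pax7* only cells were *Nectin1* (26.8-fold), *Postn* (23.5-fold), *Col1a1* (22.7-fold), *Gpc6* (19.7-fold), *Tkt* (19.5-fold) and *Islr* (15.6-fold). *Postn*, a matrix protein of connective tissue, had UMIs in 18 of the 26 cells. *Col1a1* had them in only 7, and the 2 highest cells held 90.1% of its 121 UMIs. All 10 of the 13 tendon markers past the 2-fold mark between the classes were higher in *Pax7* only cells, with sums of 1913, 890.1 and 598 CPM and a highest single cell of 7967 CPM. Whether tendon cell transcripts in these cells had a part in that was not tested.

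*Myod1* was at 89.2, 1054 and 1510.1 CPM. All 25 *Myog* only cells had it, with 487 to 3146 CPM per cell, and 16 of 26 *Pax7* only cells, with at most 369 CPM, so that the ranges of these 2 classes did not overlap. The 16.9-fold difference (12.9 to 22.7) lay mostly between *Pax7* only cells and cells with both. *Myog* itself was at 1178 CPM in the cells with both and 4199.8 CPM in *Myog* only cells.

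Of 14 fusion genes that passed the filter between the classes, 8 were at least 2-fold higher in *Myog* only cells and 4 lower, the lower ones being *Cdh2*, *Kirrel*, *Dock1* and *Adgrb3*. *Mymk* was at 0, 64.3 and 367 CPM and *Mymx* at 0, 148 and 1064 CPM, at least 74.1-fold and 215-fold higher in *Myog* only than in *Pax7* only cells. Each had UMIs in 23 of the 25 *Myog* only cells. Of the 17 cells with both, 4 had *Mymk* and 8 had *Mymx*. The 2 highest cells of that class held 88.9% of its *Mymk* and 85.5% of its *Mymx* UMIs. *Chrna1* had 2 UMIs in *Pax7* only cells, and its level was 3.30, 80.9 and 283 CPM (85.7-fold, 23.3 to 713). *Gm28653*, the transcript around miR-206 and miR-133b shown above, was at 14.9, 124 and 276 CPM (18.6-fold), with UMIs in 3, 10 and 24 cells.

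Some lineage genes had ratios between the classes whose intervals included 1. *Pitx3* was at 54.5, 73.8 and 79.1 CPM, a ratio of 1.45 (0.906 to 2.35). *Eya4*, a cofactor of homeobox factors, had a ratio of 1.06 (0.734 to 1.54). *Mef2c*, a partner of the myogenic factors, was at 47.9, 54.7 and 749 CPM, so that its 15.6-fold difference (10.7 to 23.6) lay between the cells with both and *Myog* only cells. *Smyd1*, which serves sarcomere assembly, showed the same at 9.91, 19.04 and 249.6 CPM.

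**Figure D4:**
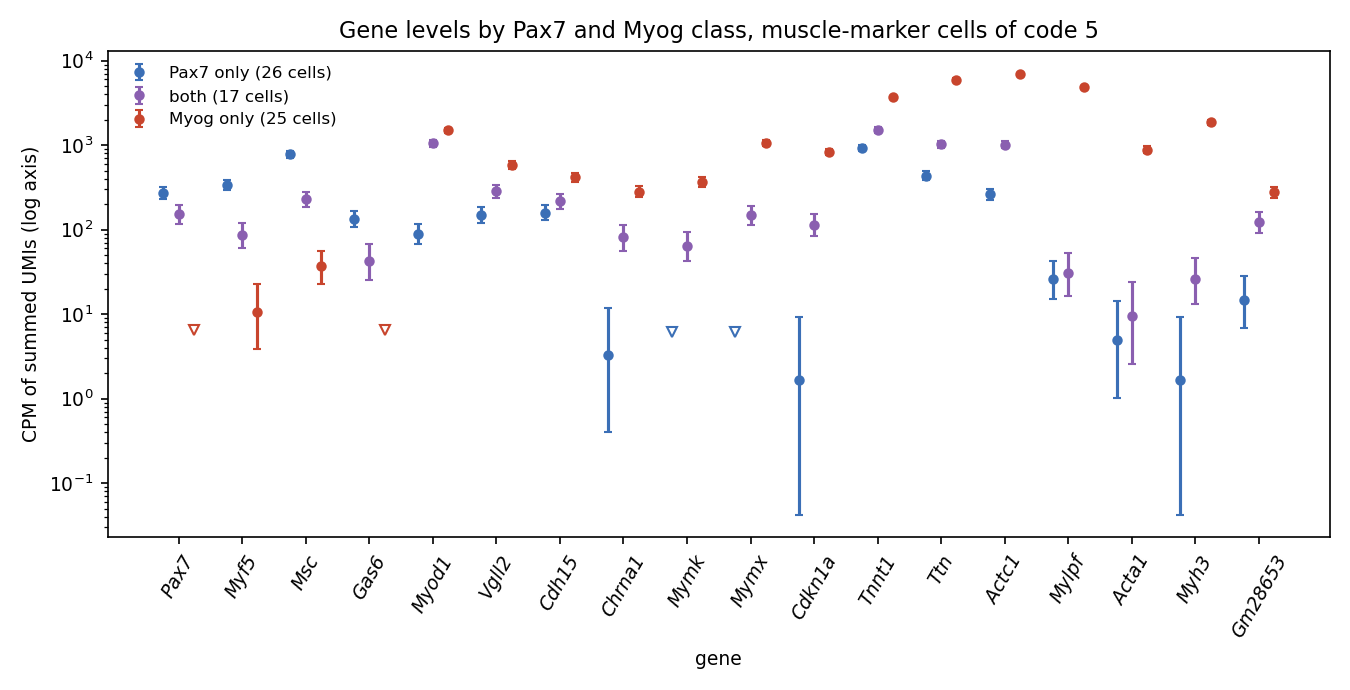
Level of 18 genes (x axis) in the Pax7 only (blue, 26 cells), both (purple, 17 cells) and Myog only (red, 25 cells) classes of the muscle-marker cells, as CPM of summed UMIs on a log axis. Bars are exact 95% Poisson intervals, and open triangles mark the upper limit where no UMI was counted. Pax7, Myf5, Msc and Gas6 go down from Pax7 only to Myog only, and the genes from Myod1 to the right go up.

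The share of sarcomere transcripts separated most *Myog* only cells from the *Pax7* only cells, while most cells with both lay within the *Pax7* only range. In the 26 *Pax7* only cells they took 0.162% to 0.929% of a cell's UMIs (median 0.466%), in the 17 cells with both 0.331% to 2.04% (median 0.777%), and in the 25 *Myog* only cells 0.536% to 13.2% (median 3.70%). Of the *Myog* only cells, 23 lay above the highest *Pax7* only cell, as did 4 of the cells with both. Of 47 sarcomere genes that passed the filter between *Myog* only and *Pax7* only cells, 43 were at least 2-fold higher and none lower, and the sum was 45254 against 4522 CPM, 10.0-fold (9.62 to 10.4).

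Sarcomere genes differed in how their levels were spread over the classes. *Tnnt1* was present throughout, at 935, 1511 and 3708 CPM and with UMIs in every cell of the 3 classes. *Ttn* was at 433, 1026 and 5949 CPM (13.7-fold, 12.1 to 15.6) and *Actc1* at 263, 1016 and 6949 CPM (26.5-fold, 22.6 to 31.2). *Actc1* had UMIs in only 9 of the 26 *Pax7* only cells, and the 2 highest cells held 87.4% of them. In the cells with both, the 2 highest held 65.6% of the *Actc1* and 63.3% of the *Ttn* UMIs. *Mylpf*, the fast regulatory light chain, was at 26.4, 30.9 and 4829 CPM (183-fold, 112 to 320). *Acta1* was at 4.96, 9.52 and 884 CPM (178-fold, 60.7 to 868), and *Tnnc2*, fast troponin C, at 0, 0 and 679 CPM (at least 137-fold).

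*Myh3* was at 1.65, 26.2 and 1858 CPM, with UMIs in 1, 2 and 16 cells, and its ratio of 1125 (201 to 44465) rests on a single UMI in *Pax7* only cells. A few cells held much of the late transcripts. The 2 highest *Myog* only cells held 62.6% of that class's *Acta1* UMIs and 45.0% of its *Mylpf* UMIs, against 18.6% for *Tnnt1*. For *Mylpf*, the 2 highest cells held 87.5% in the *Pax7* only class and 76.9% in the cells with both.

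Cell cycle genes ran the other way. Of 24 S phase genes, 23 were at least 2-fold lower in *Myog* only than in *Pax7* only cells and none was higher, with sums of 3886, 3408 and 1028 CPM over the classes (0.265-fold, 0.241 to 0.290). Of 24 G2M genes 17 were lower, with sums of 5023, 5196 and 2118 CPM (0.422-fold, 0.394 to 0.451). *Mki67*, a marker of dividing cells, had UMIs in 20 of 26, 13 of 17 and 10 of 25 cells.

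The *Myog* only class was not uniform in this respect. In 13 of its 25 cells the S phase and G2M genes together took under 0.1% of the UMIs, and these cells had 2.84% to 13.2% of sarcomere UMIs (median 5.34%), with *Myh3* in 12. In the other 12 cells the sarcomere share was 0.536% to 3.70% (median 1.57%), with *Myh3* in 4. The sarcomere ranges overlapped, and the medians of UMIs per cell were 22969 and 21603. Under the same mark of 0.1%, which was chosen after the values had been seen, lay 1 of the *Pax7* only cells and none of the cells with both.

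**Figure D5:**
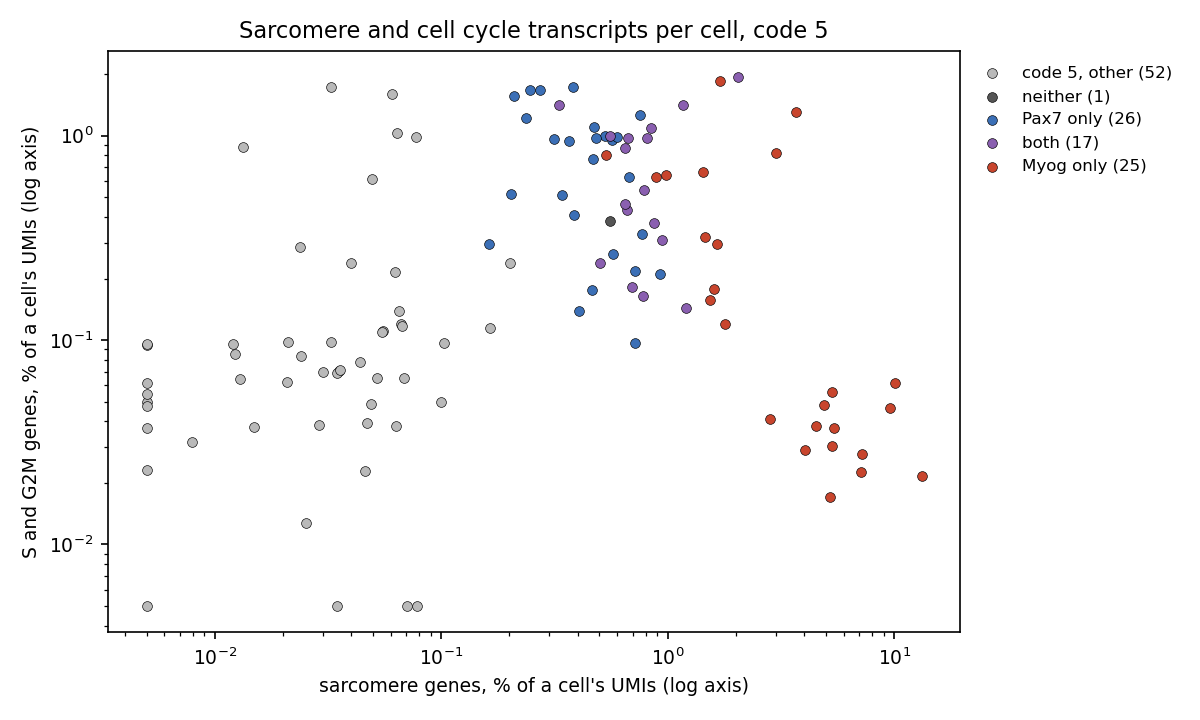
Share of a cell's UMIs from 56 sarcomere genes (x axis, percent, log) and from 48 S and G2M genes (y axis, percent, log) in each cell of code 5, by class, with values under 0.005% drawn at 0.005%. The 13 Myog only cells at the lower right, with under 0.1% cell cycle UMIs, have 2.84% to 13.2% sarcomere UMIs, and the other 52 cells of code 5 (gray) lie at 0.201% or less.

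Of 11 genes of cell cycle exit that passed the filter between the classes, 3 were at least 2-fold higher in *Myog* only cells and 4 lower, among the lower the cyclin genes *Ccnd1* and *Ccnd2*. The 3 that were higher follow. *Cdkn1a*, the gene of p21, was at 1.65, 114 and 828 CPM, with UMIs in 1, 8 and 21 cells. Its ratio of 501 (89.5 to 19837) again rests on 1 UMI in *Pax7* only cells. *Cdkn1c*, the imprinted gene of p57, was already high in *Pax7* only cells and stood at 5282, 7878 and 20625 CPM (3.90-fold), and over the other tail cells the muscle-marker cells were 4.26-fold higher. Its per-cell medians were 5533, 4641.5 and 22546 CPM. In the cells with both, the 2 highest held 42.4% of the *Cdkn1c* UMIs. *Rb1*, the retinoblastoma gene, was at 14.9, 73.8 and 299 CPM (20.1-fold, 10.3 to 44.7).

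*Ccnd1*, the cyclin that growth factors induce, was at 64.4, 45.2 and 1.76 CPM, and *Ccnd3*, the cyclin of differentiating muscle, at 463, 449.8 and 464 CPM. *Cdkn1b*, the gene of p27, was at 44.6, 40.5 and 31.6 CPM, a ratio of 0.709 (0.368 to 1.34).

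Among 14 imprinted growth genes, 5 were at least 2-fold higher in *Myog* only cells and 1 lower. The list held *Dlk1*, *Meg3*, *Rian* and *Mirg* of one imprinted domain, which was singled out after the values were seen. *Meg3* was at 881, 881 and 3505 CPM (3.98-fold, 3.62 to 4.39), *Rian* at 145, 145 and 643 CPM (4.43-fold), *Mirg* at 16.5, 11.9 and 66.8 CPM (4.04-fold, 1.98 to 9.10) and *Dlk1* at 203, 176 and 615 CPM (3.03-fold). *H19* was at 1236, 1078 and 1345 CPM, and *Igf2* had a ratio of 1.21 (0.758 to 1.93). Of the posterior *Hox* genes that passed, 9 of 12 were lower in *Myog* only cells and 1 was higher, and *Hoxc13* was at 173, 102 and 35.2 CPM.

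Genes of later function were highest in the *Myog* only class. Of 22 coupling genes 20 were higher and none lower, of 18 junction genes 13 higher and 2 lower, and of 17 energy genes 11 higher and none lower. *Sln*, which regulates the calcium pump, was at 0, 2.38 and 338 CPM, and *Stac3* at 1.65, 21.4 and 234 CPM. *Acta2* was at 421, 1326 and 3258 CPM (7.73-fold, 6.78 to 8.85).

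The other 52 cells of code 5 had no UMI of *Myog*, *Myod1*, *Myf5* or *Chrna1*, where 3 counts would be 5.32 CPM. These genes were among the muscle markers of the split, so that their absence is partly fixed by it. Among the 10 genes with the largest ratio to the other tail cells were *Ptgds*, *Neurog1*, *Neurog2*, *Rfx4*, *Neurod4*, *Sstr2*, *Msx3*, *Hes5* and *Btbd17*. *Neurog1* and *Neurog2*, factors that commit neural progenitors to become neurons, were at 69.1 and 161 CPM against 0.171 and 0.411 CPM in the other tail cells, with UMIs in 6 and 10 cells. Neither had a UMI in the muscle-marker cells.

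*Sox2*, a factor of neural stem cells, had UMIs in 27 of the 52 cells and *Elavl3*, an RNA-binding protein of young neurons, in 35, with both in 13, *Sox2* only in 14, *Elavl3* only in 22 and neither in 3. The cells with *Elavl3* only had a median of 4012 UMIs and those with *Sox2* 10726, so that the detection of *Sox2* and depth moved together. No muscle-marker cell had a UMI of either gene. For *Elavl3* this is partly fixed, because it was a neural marker of the split, which *Sox2* was not. *Pax7* was found in 9 of the 52 cells, all of which had *Pax3*, and the dorsal factor *Msx3* in 18. Both *Pax* genes are known from the dorsal neural tube as well as from muscle.

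Every cell of codes 10 and 14 had at least 2 of the neural markers. Compared with code 10, the 52 cells had less of the neuronal genes. *Stmn2* was at 514 against 2099.6 CPM (0.245-fold, 0.216 to 0.276), *Ina* at 337 against 2172 CPM and *Lhx1* at 90.4 against 453 CPM. They had more of the progenitor genes, with *Fabp7* at 2196 against 11.9 CPM (185-fold, 119 to 304) and *Sox2* at 275 against 3.56 CPM (77.2-fold, 34.7 to 214). *Fabp7* was unevenly spread, with UMIs in 28 of the 52 cells, a median of 57.0 CPM per cell and 46.0% of the UMIs in 2 cells. It was higher still in code 14, at 5001 CPM.

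Transcripts of 3 long non-coding RNAs whose spans hold copies of miR-9, a microRNA of the nervous system, also lay in these cells, *Gm3764* at 246 CPM, *Mir9-3hg* at 151 CPM and *C130071C03Rik* at 200.3 CPM. In the muscle-marker cells they were at 0, 0 and 0.624 CPM and in code 10 at 139.9, 104.9 and 232 CPM. The sum over all 6 host genes of the list was 876 CPM in the 52 cells and 1342 CPM in code 10. The mature sequence is the same at all 3 genes and is shown beside those of the muscle transcript for its different seed, and it was not measured.

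mmu-miR-9-5p: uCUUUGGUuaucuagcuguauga

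Without the 5 called doublets, the remaining 47 cells had *Sox2* at 364 and *Elavl3* at 414 CPM. Their tendon marker sum was 436 CPM, against 2007 CPM over all 52 cells.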

How the data were processed

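Tail cells were captured for 10x Genomics 3′ sequencing (v3 chemistry). The authors used cellranger for alignment and for the UMI count, left out multi-mapping reads, removed cells with high mitochondrial or extreme transcript numbers, and clustered with Seurat. The genome build is not given in the sources used here. The deposited table holds raw counts of UMIs, not normalized, for each gene in each cell, with the authors' cluster code of each cell. Multi-mapping reads of near-identical genes are missing from them.

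Members and gene lists were chosen with earlier results of these data known. UMIs were summed over cells and divided by the group total (CPM). Intervals are exact (95%): Poisson for levels, conditional binomial for ratios and Clopper-Pearson for shares. They cover counting error only. Ratios against 0 used a floor of 3 counts over the group. Genes called by size had a ratio of at least 2 where the gene was found in 10% or more of the cells in one of the groups. Named genes were those of the lists, the 20 with the largest ratio among genes with at least 50 CPM in code 5, the 10 with the smallest ratio among genes with at least 100 CPM in the other cells, and the 10 with the largest ratio in each direction between *Pax7* only and *Myog* only cells among genes with at least 50 UMIs. Genes named outside this rule were chosen after their values were seen, as were the lists and leading genes of the neural part. Shares of cells used cells thinned to 3000 UMIs, which left out 12 cells of code 5 (0 muscle-marker cells) and 88 others. Doublets were called with Scrublet in Scanpy 1.11.5 at an expected rate of 6% and kept. Promoter and microRNA sequences came from RefSeq (GRCm38.p6) and host transcripts from GENCODE M21. Motifs were first searched with any base in the middle, and the restriction to A or T was added after the values were seen. Python 3.11.15, NumPy 2.4.6, SciPy 1.17.1, pandas 2.3.3 and Matplotlib 3.10.9 were used. Alternatives varied doublets, shallow cells, the definition of CPM, the fold, the filter, the thinning depth and the split of the code. A few genes that the rule names are not reported here.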

Additional observations from a re-analysis of the deposited data

Results flagged for a closer look

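The D10 culture library, which enters no comparison above, also held cells of code 5 with muscle transcripts. For a culture cluster of this number of cells, the study proposes that its members may be pluripotent cells left undifferentiated. Of the 556 culture cells with that code, 32 had more muscle than neural markers (5.76%, 3.97 to 8.03), with a median of 7375 UMIs. In these 32 cells *Myog* was at 975, *Ttn* at 3414, *Actc1* at 4845, *Myod1* at 321 and *Pax7* at 23.8 CPM, and *Myog* had no UMI in the other 524. All of these genes were among the muscle markers that chose the 32 cells. A single muscle marker without a neural marker was enough for the choice. The levels and the lack of *Myog* in the 524 are therefore partly fixed by it. In the tail's 69 muscle-marker cells the same genes were at 1800.1, 2545, 2834, 847 and 143 CPM. The libraries differ in origin and depth, and the difference was not tested.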

How the results depend on the processing

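Of 78 recomputed values, 50 stayed near the main value, 28 moved and none reversed, where a count stayed if it was within 1.5 times the main count and a ratio or share if it lay in the 95% interval of the main value, which is narrow for abundant genes. Counts and shares have no direction, so that only the ratios could have reversed, and these were all far from 1. No paired analysis was possible because each group came from the same single library. With the muscle-marker cells only, a split made after the values were seen, 2010 genes were at least 2-fold lower. The *Ttn* ratio was 509, the sarcomere ratio 15.7 and the share of tail cells 3.36%. *Myog*, *Ttn* and *Myod1* had a UMI in 53.6%, 71.0% and 65.2% of cells and 1 cell had neither *Pax7* nor *Myog*. In all of code 5, 242 genes were higher and 469 lower at a fold of 4, and 2832 and 8775 without the detection filter. Between *Myog* only and *Pax7* only cells of all of code 5, 2967 genes were at least 2-fold higher and 5640 lower without that filter. The remaining alternatives concern all of code 5, for which the ratios of *Myog*, *Ttn*, *Myod1* and the sarcomere sum were 1554, 376, 795 and 11.7. As a mean of per-cell CPM the ratios of *Myog*, *Ttn*, *Myod1* and the sarcomere sum were 778, 134, 406 and 7.93. With the other codes weighted equally, *Ttn*, *Myod1* and the sarcomere sum were 248, 297 and 13.8. The sarcomere ratio was 12.5 without called doublets and 11.0 with hemoglobin and mitochondrial genes left out of the total. *Pax7* was found in 32.7% of code 5 cells at 5000 UMIs and in 43.0% without thinning. At 3000 UMIs 22 cells had *Pax7* only and 3 both, and 8 had both where 2 UMIs were required. The single library and the small classes limit all values, and absence of a UMI at this depth is not absence of the transcript.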

Other observations

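Some transcripts within code 5 lay in a few cells. *Fst*, the gene of follistatin, which binds myostatin and activins, had 147 UMIs in 12 of the 69 muscle-marker cells and was at 8.26, 4.76 and 246 CPM in the *Pax7* only, both and *Myog* only classes. Cartilage markers summed to 376 CPM in the *Myog* only class, where the median cell had none and the highest had 6066 CPM. Among the other 52 cells, *Ptgds*, the gene of a prostaglandin synthase of the meninges, had 120 UMIs in 6 cells, and *Dct*, a melanin enzyme of melanocytes, had 27 UMIs in 3 cells.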
